A study of Mus musculus with 71 samples.

Results

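The 10 genes described here make, carry and break down the monoamine transmitters dopamine, noradrenaline and serotonin. They are the hydroxylases Th and Tph2, the decarboxylase Ddc and the hydroxylase Dbh, the transporters Slc6a3, Slc6a4 and Slc18a2, and the breakdown enzymes Maoa, Maob and Aldh1a1. They were chosen by name, with earlier results of these data known, out of 18193 genes with a probe set. The 10 genes have 14 probe sets, 7 of them only 1, and where a gene had several the one with the highest average log2 value across the arrays was read. The study measured messenger RNA on 71 arrays from mouse brain after loss of GLP (gene Ehmt1) or G9a (gene Ehmt2), partner enzymes that methylate histone H3 and are linked to gene silencing.

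The whole-tissue mutants were Camk2a-Cre; GLPfl/fl and Camk2a-Cre; G9afl/fl mice, in which Cre under the Camk2a promoter deletes the floxed gene in forebrain neurons after birth, and their controls were GLPfl/fl or G9afl/fl littermates without Cre. Total RNA came from hippocampus, hypothalamus, striatum and cortex, on 59 arrays. Each of the 16 tissue groups held 4 arrays, except 3 for the G9a-line hippocampus controls and 2 each for the G9a cortex mutants and controls. The other 12 arrays, 3 per group, held RNA bound to polyribosomes, pulled down with antibodies to GFP from the striatum's medium spiny neurons (MSN), marked by either of 2 dopamine receptors, Drd1 or Drd2. The Drd1-MSN mutants were Drd1-Cre; Drd1-bacTRAP; G9afl/fl mice. The Drd2-MSN mutants had the genotype Drd2-Cre; Drd2-bacTRAP; G9afl/fl. Without Cre, Drd1-bacTRAP; G9afl/fl mice were the controls of the former. Likewise, Drd2-bacTRAP; G9afl/fl mice were those of the latter, and each array was a pool of 5 mice. All mice were 10 to 14 weeks old by the series design, and 12 weeks old by the extraction protocol for the tissues. The series design calls the samples biological replicates, and no label says whether regions came from the same animals.

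In dopamine and noradrenaline neurons Th makes L-DOPA from tyrosine and Ddc turns it into dopamine, which Dbh converts to noradrenaline. In serotonin neurons Tph2 makes the precursor that Ddc turns into serotonin. Slc18a2 loads all of these amines into vesicles, Slc6a3 takes dopamine and Slc6a4 takes serotonin back up, and the monoamine oxidases Maoa and Maob with aldehyde dehydrogenases such as Aldh1a1 degrade them. Most of these neurons have their cell bodies in the midbrain, raphe and brainstem, which were not sampled, while the hypothalamus holds dopamine neurons of its own. Maoa and Maob are also made by other neurons and by glia. In tissue arrays, fewer cells of a type and less RNA per cell cannot be told apart.

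Promoter sequences are shown for 3 of the genes on which the results turn: Th and Slc6a3, which varied together in the hypothalamus, and Tph2, which rose in the GLP mutant cortex. They are the 250 bases before the RefSeq start of each gene in build GRCm38.p6, from 5′ to 3′ on the strand of the gene. Capitals mark matches to TGACGTCA, the cyclic-AMP response element, in Th, to TATAAA, the TATA box, in Tph2, and to CACGTG, an E-box, in Slc6a3.
Th (chr7:142899996-142900245, minus strand): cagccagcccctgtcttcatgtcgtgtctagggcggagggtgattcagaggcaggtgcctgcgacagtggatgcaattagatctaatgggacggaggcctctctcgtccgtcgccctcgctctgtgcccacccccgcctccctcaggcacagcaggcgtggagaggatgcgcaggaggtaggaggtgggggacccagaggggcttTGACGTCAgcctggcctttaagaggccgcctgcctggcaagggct
Slc6a3 (chr13:73536497-73536746, plus strand): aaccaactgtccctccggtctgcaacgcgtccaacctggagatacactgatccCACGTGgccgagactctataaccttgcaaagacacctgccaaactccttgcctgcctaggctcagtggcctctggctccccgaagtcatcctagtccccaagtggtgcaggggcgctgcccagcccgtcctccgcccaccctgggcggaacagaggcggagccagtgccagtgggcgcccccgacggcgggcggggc
Tph2 (chr10:115185023-115185272, minus strand): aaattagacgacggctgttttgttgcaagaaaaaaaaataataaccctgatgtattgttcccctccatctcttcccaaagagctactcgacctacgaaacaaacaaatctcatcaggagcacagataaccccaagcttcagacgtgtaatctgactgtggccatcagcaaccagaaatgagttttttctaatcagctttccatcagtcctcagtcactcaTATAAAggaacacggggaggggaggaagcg

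The table of RefSeq promoters held 9 of the 10 genes, with a pair each for Ddc and Aldh1a1. The 3 motifs were searched on both strands, and no window of a member held more than 1 of them. TGACGTCA was found in 1 of the 9 genes, Th, and in 1.55% of all 32851 promoters. TATAAA was found in Tph2 and in 1 promoter of Ddc, and in 12.4% of all promoters. CACGTG was found in Slc6a3 alone among the 9 and in 6.02% of all promoters. The Th window held 13 CG pairs, that of Slc6a3 16 and that of Tph2 7, beside a median of 6 over all promoters. A match is a description of the letters and not a measured binding site.

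All levels below are log2 intensities with the median of each array at 0, so a value below 0 lies under the middle probe set of its array. Probe sets differ in efficiency, and levels are not compared between genes. Ddc, Dbh, Maoa, Maob and Aldh1a1 were above 0 on all 71 arrays, Th on 58, Slc18a2 on 27, Slc6a3 on 21, Tph2 on 15 and Slc6a4 on 0. The signal of Dbh came from a probe set of the x_at kind, whose probes can also match other transcripts, and its other probe sets were above 0 on 2 and 0 arrays. Differences were tested with limma and Benjamini-Hochberg adjustment over all genes tested, and a difference with an adjusted p under 0.05 is said to pass. A gene was tested in a comparison where it lay above 0 in at least as many arrays as the smaller group holds.

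Of the deleted genes, Ehmt1 stood at 58.9% of control in the cortex of GLP mutants, 67.0% in hippocampus, 72.6% in striatum and 89.8% in hypothalamus, where it did not pass (adjusted p = 0.711). Ehmt2 stood at 29.5%, 44.6%, 41.1% and 49.2% in the same regions of G9a mutants. It stood at 24.3% in the Drd1-MSN mutants and 94.5% in the Drd2-MSN mutants, neither of which passed (adjusted p = 0.943 and 1.00). The Drd1-MSN value rests on mutant pool 2, where Ehmt2 was at 1.56 against 5.01 and 4.93 in the other mutant pools, and without that pool it was 53.3%. No source used here says if these probe sets read the deleted exons. The tissue labels were checked against marker genes: 6 of 7 hippocampus, 6 of 9 hypothalamus and 3 of 7 cortex markers had their highest mean in the tissue named, and all 3 Drd2-MSN markers and 4 of 6 Drd1-MSN markers did so in their cell type. Of the 7 striatum markers 0 had their highest mean in the striatum, and each was highest in Drd1-MSN or Drd2-MSN. They were each above the array median on all 16 striatum arrays. Nkx2-1, a defining gene of the hypothalamus, was below it on all 16 hypothalamus arrays. Drd1, the gene that names the Drd1-MSN pools, had a mean of 8.10 in them and of 8.43 in Drd2-MSN.

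In control mice the hypothalamus had the highest level of 7 of the 10 genes. Against the striatum, 7 of the 8 genes tested were higher in the hypothalamus and 0 lower. Among all genes tested 73.2% passed in that comparison, 33.3% higher and 39.9% lower. Against the cortex, 7 of 8 were higher and Dbh was lower, where 74.1% of all genes passed, 40.3% higher and 33.8% lower. The hippocampus was higher than the hypothalamus for 0 and lower for 7 of 8 genes, where 72.8% of all genes passed, 41.8% higher and 31% lower. Th, Ddc, Slc6a3, Slc18a2, Maoa, Maob and Aldh1a1 are the 7 genes in each case. Slc6a3 entered these tests through the hypothalamus arrays only, as 0 control arrays of the other regions stood above the array median. Slc18a2 entered mainly through them, beside 3 hippocampus, 1 striatum and 0 cortex arrays above it. In the hippocampus comparison so did Th, with 1 of 7 hippocampus arrays above it. The direction of these genes in the counts was thus largely set by the filter.

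Between the other regions the counts were closer to those of all genes. The hippocampus was lower than the striatum for 3 of 6 members, Th, Ddc and Maoa, where 52.9% of all genes passed and 24.4% were lower. Against the cortex the hippocampus was higher for Maob and Aldh1a1 and lower for Th and Dbh, of 6 tested, where 63.7% of all genes passed, 41.1% higher and 22.6% lower. Th entered both of these tests mainly through the other region, as 1 of 7 hippocampus control arrays stood above the array median. The striatum was higher than the cortex for Ddc, Maoa, Maob and Aldh1a1 and lower for Dbh, of 6 tested, where 67.9% passed, 41.2% higher and 26.7% lower. Dbh, with a narrow range from 0.84 to 1.25 over the 4 control means, lost its place below the cortex in GLP-line controls alone, both for the hippocampus (0.0072, adjusted p = 0.966) and for the striatum (-0.12, adjusted p = 0.376). Its difference between hippocampus and cortex (-0.23, adjusted p = 0.0359) was also lost in a fit of the compared groups alone (adjusted p = 0.0630) and without any 1 of 7 arrays, namely GLP-line hippocampus control 3 or 4, GLP-line cortex control 2, G9a-line hippocampus control 1 or 3, or G9a-line cortex control 1 or 2. Dbh in the hippocampus and hypothalamus did not pass (0.18, adjusted p = 0.0578). It passed without GLP-line hippocampus control 3 or 4, GLP-line hypothalamus control 1 or 2, G9a-line hippocampus control 3 or G9a-line hypothalamus control 3 (adjusted p from 0.0277 to 0.0494). It also passed with no intensity trend (0.0458), with the replicate number as a block (0.0232) and in GLP-line controls alone (0.49, adjusted p = 0.000298), while G9a-line controls gave -0.13 (adjusted p = 0.406).

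**Figure D1:**
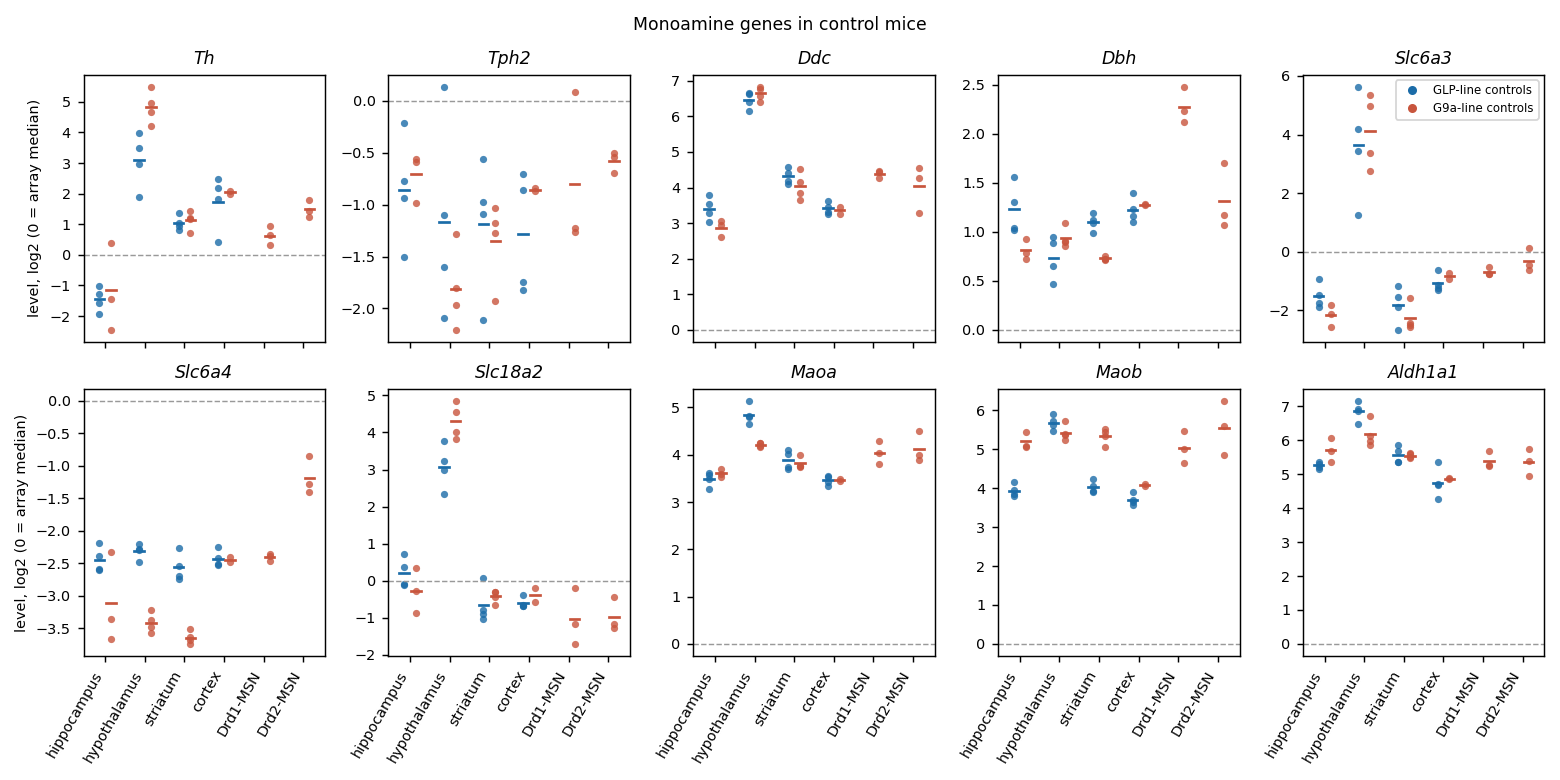
Level of each gene on every control array (log2, 0 = array median, dashed line) by tissue or cell type; points are arrays, short lines are group means, blue is the GLP line and red the G9a line. Slc6a3 and Slc18a2 stand above 0 on all 8 hypothalamus arrays, and Slc6a4 lies below 0 on all control arrays.

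Th, the first enzyme of dopamine synthesis, had control levels in the hypothalamus from 1.89 through a median of 4.09 to 5.49. In the cortex it ran from 0.43 through 2.04 to 2.49 and in the striatum from 0.71 through 1.12 to 1.42. In the hippocampus it ran from -2.44 through -1.43 to 0.40, with 1 of 7 arrays above the array median. The order was thus hypothalamus, cortex, striatum and hippocampus, and the neighbours cortex and striatum did not pass the test (striatum minus cortex -0.80, SE 0.378, limma adjusted p = 0.0563). That difference passed when values below the array median were set to it (adjusted p = 0.0222), in a fit of the compared groups alone (0.00940) or after quantile normalization (0.0497), and also without GLP-line cortex control 2, the lowest of the cortex arrays. The hypothalamus exceeded the cortex by 2.07 (SE 0.378, adjusted p = 3.61e-06), which is 4.20-fold, and the striatum by 2.87 (SE 0.338, adjusted p = 1.33e-10), which is 7.33-fold.

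Ddc, the decarboxylase shared by both pathways, ranged from 6.14 to 6.84 in hypothalamus controls. It ranged from 3.66 to 4.57 in the striatum, from 3.25 to 3.62 in the cortex and from 2.60 to 3.79 in the hippocampus. No hypothalamus array overlapped with any other region. The hypothalamus was 5.17-fold above the striatum (difference 2.37, SE 0.118, adjusted p = 5.58e-24) and 8.99-fold above the cortex (difference 3.17, SE 0.131). Striatum exceeded cortex by 0.80 (SE 0.131, adjusted p = 6.49e-07), while hippocampus and cortex did not pass (-0.24, SE 0.136, adjusted p = 0.113), except after quantile normalization (-0.36, adjusted p = 0.0122) and without GLP-line hippocampus control 4.

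Slc6a3, the dopamine transporter, lay above the array median on 8 of 8 hypothalamus controls, from 1.25 through 3.81 to 5.63, and on 0 of 7 hippocampus, 0 of 8 striatum and 0 of 6 cortex controls. Its hypothalamus level was at least 14.6-fold that of the striatum, the cortex or the hippocampus, taken as the array median over a group mean below it. Slc18a2, the vesicle transporter, ran from 2.33 through 3.80 to 4.85 in hypothalamus controls. It was above the median on 3 of 7 hippocampus, 1 of 8 striatum and 0 of 6 cortex control arrays, and its hypothalamus level was at least 12.97-fold that of each of the other regions. Slc6a4, the serotonin transporter, lay between -3.74 and -2.18 in the tissue controls and was not tested in any region comparison. Tph2, the serotonin hydroxylase of the brain, was above the median on 1 of 29 tissue control arrays, a hypothalamus array at 0.14, and was not tested between regions either.

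Among the breakdown enzymes, Aldh1a1 ran from 5.86 through 6.60 to 7.16 in hypothalamus controls. It ran from 5.36 to 5.86 in the striatum, from 5.14 to 6.05 in the hippocampus and from 4.28 to 5.34 in the cortex. Hippocampus and striatum did not pass (-0.08, SE 0.134, adjusted p = 0.657), and the cortex was lower than each of the other 3 regions, by 3.26-fold against the hypothalamus, 1.68-fold against the striatum and 1.59-fold against the hippocampus.

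Maoa, the oxidase with a preference for serotonin and noradrenaline, had mean control levels of 4.53 for hypothalamus, 3.86 for striatum, 3.55 for hippocampus and 3.46 for cortex. Hippocampus and cortex did not pass (0.09, SE 0.094, adjusted p = 0.436). The hippocampus was below the striatum (hippocampus minus striatum -0.31, SE 0.085, adjusted p = 0.00186), a call lost with G9a-line controls alone (-0.21, adjusted p = 0.175).

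Maob, the oxidase that glia make most of, had the same order of regional means in both mouse lines, with gaps of different size. In GLP-line controls its means were 5.68 for hypothalamus, 4.03 for striatum, 3.93 for hippocampus and 3.70 for cortex. In G9a-line controls they were 5.43, 5.33, 5.20 and 4.08 in the same order. Over both lines the hypothalamus exceeded the striatum by 0.87 (SE 0.093, adjusted p = 8.02e-12), but by 0.096 in G9a-line controls alone, where it did not pass (adjusted p = 0.537). Hippocampus minus hypothalamus was -0.98 over both lines but did not pass in the G9a line (-0.23, adjusted p = 0.168), and its excess over the cortex, 0.68, did not pass in the GLP line (0.23, adjusted p = 0.133).

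Maoa and Maob lie on the X chromosome. Xist, transcribed from the inactive X of females, was above the array median on 32 of 32 GLP-line and 11 of 27 G9a-line tissue arrays, and in the G9a line the counts were equal or 1 array apart between mutants and controls of a region. Line and the processing of the arrays cannot be told apart in the difference between lines. By Xist, sex was mixed only in the G9a line, and the part of sex in the levels of Maoa and Maob was not tested.

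Among the 10 comparisons of mutants with controls, members passed the test in the cortex of both lines and in no other, and each of these changes was a rise. In the GLP cortex 3 of 7 members tested were higher and 0 lower, where 1.54% of all genes tested passed and 1.31% were higher. The median difference of the 7 was 0.66, beside 0.0024 over all genes tested. Tph2 entered the test through the mutant arrays only, since its control arrays were all below the median. In the G9a cortex 1 of 7 members tested was higher, where 0.728% of all genes tested passed and 0.625% were higher, and the median difference was 0.40 beside -0.022. Tph2 entered here too through the mutant arrays, with both controls below the median.

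**Figure D2:**
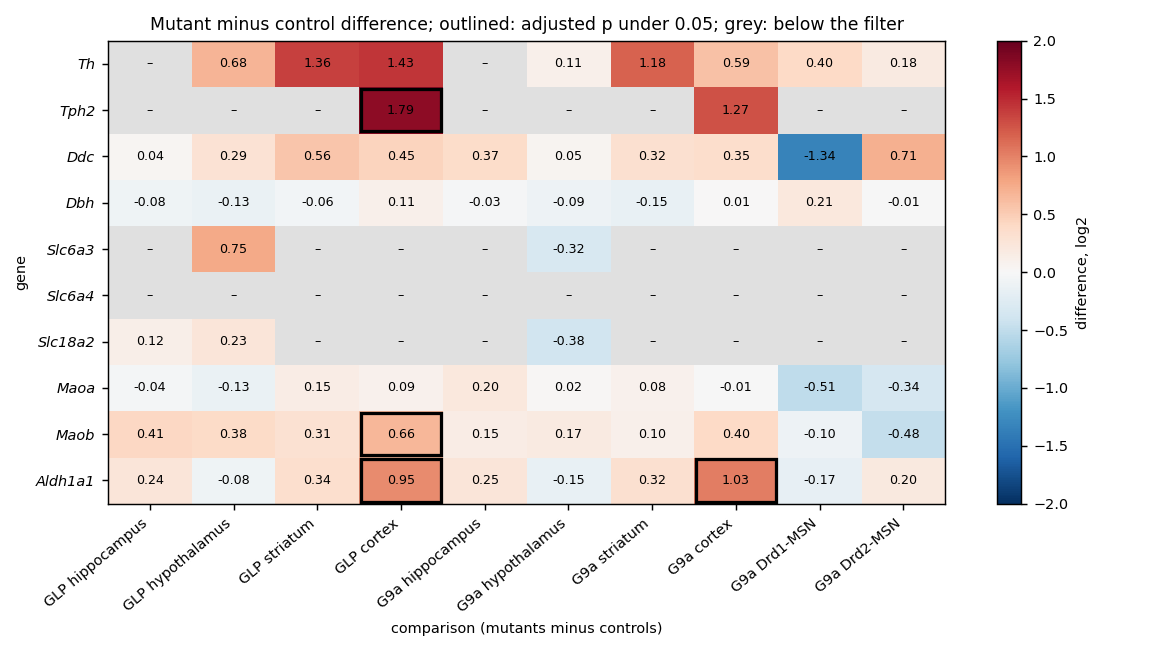
Mutant minus control difference (log2) of each gene in the 10 comparisons, with blue for lower and red for higher. Outlined cells passed at an adjusted p under 0.05, and grey cells were below the filter and not tested.

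Aldh1a1, which oxidises retinaldehyde and the aldehyde made from dopamine, passed in the cortex of both mutants. Its levels in GLP cortex were 5.72, 5.91, 5.43 and 5.76 in the mutants and 4.28, 4.72, 4.67 and 5.34 in the controls. The arrays did not overlap, and the lowest mutant array and the highest control array were 5.43 and 5.34. Mutants lay wholly above controls for 5.83% of all genes tested in the GLP cortex. The difference was 0.95 (SE 0.183, limma adjusted p = 0.000496), which is 1.93-fold. In the G9a cortex the mutants were at 6.01 and 5.78 and the controls at 4.84 and 4.89. The difference was 1.03 (SE 0.258, adjusted p = 0.0336), which is 2.04-fold. All mutant arrays lay above all controls, as for 18.4% of all genes tested in the G9a cortex. With 2 arrays per group this call did not survive the loss of any of the 4 arrays, the adjusted p then running from 0.138 to 0.606 at differences from 0.92 to 1.14.

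In the other regions Aldh1a1 did not pass, with differences of 0.24 and 0.34 in the GLP hippocampus and striatum, 0.25 and 0.32 in those of G9a mutants, and -0.08 and -0.15 in the hypothalamus of the GLP and G9a mutants. An F test for a difference of the change across the 4 regions did not pass, with adjusted p = 0.140 for GLP and 0.208 for G9a. For GLP it passed after quantile normalization (0.0468) and without cortex control 4 (0.0150). The difference between the GLP and G9a changes in the cortex was -0.08 (SE 0.317, adjusted p = 1.00).

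Markers of cells other than neurons in cortex were set beside these values. By limma, 0 of the markers tested there passed in the GLP cortex, over 10 astrocyte, 11 endothelial and mural, 6 meningeal, 9 oligodendrocyte and 7 microglia genes. The summed linear level of the astrocyte markers was 865 to 884 in mutants and 826 to 921 in controls, and that of the meningeal markers 34.0 to 42.4 and 23.4 to 43.4. In the G9a cortex 0 of 8 meningeal markers passed, but their summed level was 70.1 to 72.5 in the mutants and 27.1 to 52.1 in the controls, with a median difference of 0.91. The choroid plexus and ependyma markers summed to 73.0 to 604 in these mutants and 37.2 to 141 in the controls, with 0 of 5 passed. The part of either tissue in the Aldh1a1 difference of the G9a cortex was not tested.

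Maob rose in the GLP cortex. Its levels were 4.31, 4.52, 4.27 and 4.36 in the mutants and 3.65, 3.70, 3.56 and 3.90 in the controls, and the groups did not overlap, as for 5.83% of all genes in that direction. The difference was 0.66 (SE 0.132, limma adjusted p = 0.000875), which is 1.58-fold, and it passed in each of the 8 fits that left out an array. Maob was also higher on average in the mutants of the other 7 tissue comparisons, but none of these passed. The differences were 0.41 in the GLP hippocampus, 0.38 in the hypothalamus and 0.31 in the striatum, and 0.40 in the G9a cortex, 0.17 in the hypothalamus, 0.15 in the hippocampus and 0.10 in the striatum. In the GLP hippocampus the mutant arrays (4.38, 4.41, 4.31 and 4.30) did not overlap with the controls (4.16, 3.84, 3.80 and 3.94), where 3.96% of all genes had mutants wholly higher, and the difference passed in a fit of these groups alone (adjusted p = 0.0328, against 0.112). In those same arrays 9 of 12 choroid plexus and ependyma markers rose, and their part in the Maob value was not tested. Maoa, in contrast, differed by -0.13 to 0.20 over the 8 tissue comparisons. Its other probe set, above the array median on all 71 arrays, ran from -0.34 in the G9a striatum to 0.31 in the G9a hippocampus and did not pass in any.

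Tph2 stood above the array median on all 4 GLP cortex mutants, at 0.16, 1.08, 0.26 and 0.51, and below it on all 4 controls, at -0.86, -1.74, -1.83 and -0.70, beside the same 5.83% of all genes with mutants wholly higher. The difference was 1.79 (SE 0.377, limma adjusted p = 0.00204). Since the control mean is below the array median, the rise is at least 1.42-fold. The call was lost with a floor at the array median (0.50, adjusted p = 0.180). In the G9a cortex the mutants were at 0.41 and 0.41 and the controls at -0.87 and -0.84, a difference of 1.27 (SE 0.533, adjusted p = 1.00). With 2 arrays per group, mutants lay wholly above controls for 18.4% of all genes tested there. In a fit of these groups alone Tph2 (adjusted p = 0.00488) and Maob (adjusted p = 0.0397) passed. That fit rests on 2 arrays per group, where the SD of Tph2 was 0.0015 in mutants and 0.024 in controls. Among all genes it called more than the 85 of the main fit, and Tph2 was again tested through the mutant arrays.

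Tph2 arrays of mutants also lay wholly above those of controls in the striatum of both lines and in the G9a hypothalamus, at levels too low for the filter. GLP striatum mutants were at 0.85, 0.26, 0.12 and -0.09 and controls at -0.56, -1.09, -2.11 and -0.97. In the G9a striatum they were at 0.11, -1.02, -0.56 and 0.08 against -1.03, -1.93, -1.28 and -1.17. Mutants lay wholly above controls for 2.76% of all genes tested in the GLP striatum, 6.11% in the G9a striatum and 2.51% in the G9a hypothalamus. With no filter on low values, the adjusted p was 0.0247 in the GLP striatum and 0.00986 in the G9a hypothalamus, where mutant 1 stood at 1.49 and the other mutants between -0.82 and -0.69. Slc6a4, the other gene that marks serotonin neurons, remained below the array median on every one of these arrays.

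**Figure D3:**
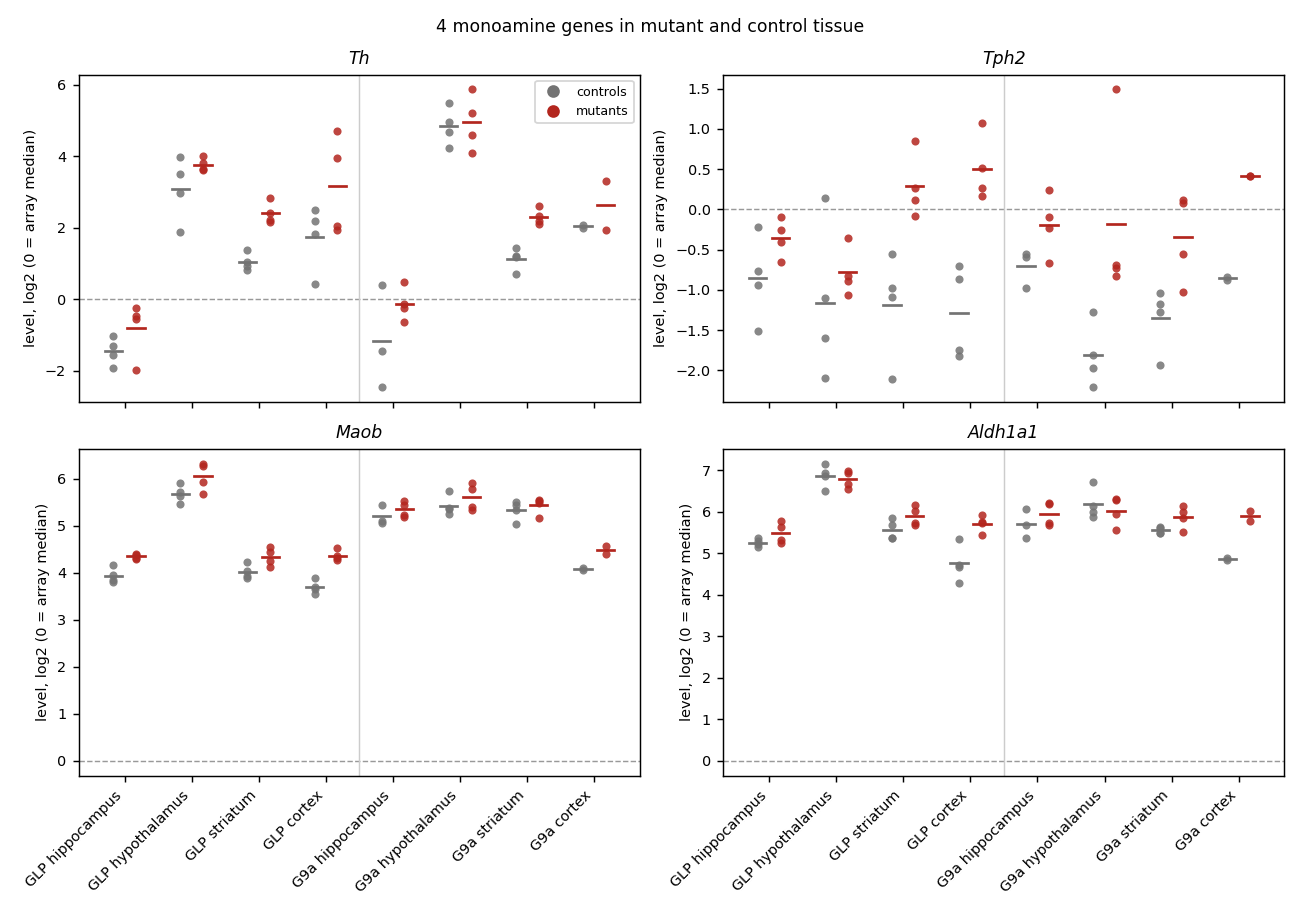
Levels of Th, Tph2, Maob and Aldh1a1 (log2, 0 = array median, dashed line) on every mutant (red) and control (grey) tissue array, by line and region; points are arrays and short lines are group means. Mutants and controls do not overlap in the cortex of either line for Tph2, Maob and Aldh1a1, or in the striatum of either line for Th and Tph2. Among all genes tested, mutants lay wholly above controls for 5.83% in the GLP and 18.4% in the G9a cortex. In the striatum these shares were 2.76% for GLP and 6.11% for G9a.

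Th was tested in 6 of the 8 tissue comparisons and had a higher mean in the mutants of each, and it did not pass in any. In the GLP striatum the mutants were at 2.82, 2.21, 2.41 and 2.17 and the controls at 0.81, 1.06, 0.93 and 1.37. In the G9a striatum the mutants were at 2.19, 2.11, 2.33 and 2.61 and the controls at 1.21, 0.71, 1.42 and 1.19. Mutants and controls did not overlap in either line, where mutants lay wholly above controls for 2.76% of all genes in the GLP and 6.11% in the G9a striatum. The differences were 1.36 (SE 0.478, adjusted p = 0.196), which is 2.57-fold, and 1.18 (SE 0.478, adjusted p = 0.228), which is 2.26-fold. The SE comes from the spread of Th over all 16 tissue groups, and in a fit of the compared groups alone both passed (SE 0.170, adjusted p = 0.00186, and SE 0.159, adjusted p = 0.00265).

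In the GLP cortex Th was at 1.95, 4.71, 2.05 and 3.94 in mutants and 1.81, 0.43, 2.19 and 2.49 in controls. These groups overlapped, and the difference was 1.43 (SE 0.478, adjusted p = 0.191), passing with a floor at the array median (adjusted p = 0.0443) or without mutant 1 (adjusted p = 0.0401). Cortex markers were set beside the striatum values. In the GLP striatum 0 of 7 passed by limma, with a summed level of 119 to 319 in mutants and 109 to 209 in controls. In the G9a striatum 3 of 7 rose, Nr4a2, Tbr1 and Rasgrf2, with a summed level of 186 to 240 in mutants and 122 to 208 in controls. Their part in the Th values was not tested.

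Ddc had no overlap in the GLP striatum, at 4.84, 4.80, 4.88 and 4.99 in mutants and 4.57, 4.11, 4.19 and 4.41 in controls. Mutants lay wholly above controls for 2.76% of all genes tested there. The difference of 0.56 (SE 0.166, 1.47-fold) had an adjusted p of 0.0856, and passed in a fit of these groups alone (0.0380) or after quantile normalization (0.0332). Slc6a3 was tested only in the hypothalamus, where it differed by 0.75 (SE 0.516, adjusted p = 0.685) in GLP and -0.32 (SE 0.516, adjusted p = 0.829) in G9a mutants. Slc18a2 differed there by 0.23 (SE 0.277) and -0.38 (SE 0.276) and did not pass. Dbh differences ran from -0.15 to 0.11 over the 8 tissue comparisons.

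By limma, 0 members passed in the remaining 8 comparisons. In the GLP hippocampus 0 of 6 passed, beside 2.05% of all genes tested, with 1 member at an unadjusted p under 0.05. In the GLP hypothalamus it was 0 of 8, beside 1.01%, with 1 unadjusted, and in the GLP striatum 0 of 6, beside 1.67% (1.15% higher), with 3 unadjusted. In the G9a hippocampus it was 0 of 5, beside 2.72%, with 1 unadjusted, in the hypothalamus 0 of 8, beside 2.34%, with 0, and in the striatum 0 of 6, beside 3.02%, with 1. The difference between the changes on loss of GLP and of G9a passed for 0 members in any region, beside 0.157% of all genes in the hippocampus, 0.00831% in the hypothalamus, 0.00842% in the striatum and 0.0168% in the cortex, and 0 members had an unadjusted p under 0.05. The F test across regions passed for 0 of 9 members in each line, beside 1.08% of all genes for GLP and 1.37% for G9a, with 2 members (Tph2 and Aldh1a1) and 1 (Aldh1a1) at an unadjusted p under 0.05.

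The mean change over the 4 regions was added as a contrast after the values of single regions had been seen, and it is no independent evidence. The fit took arrays of different regions as independent, although replicate numbers paired some GLP-line control regions. If regions came from the same animals, the p-values may be too small. A block for the replicate number, fixed or random, was among the 7 other settings given below. For GLP, 6 of 9 members tested were higher and 0 lower, where 4.15% of all genes tested were higher. These were Th (1.03, SE 0.239, adjusted p = 0.00301), Tph2 (1.04, SE 0.189, adjusted p = 8.73e-05), Ddc (0.33, SE 0.083, adjusted p = 0.00653), Slc6a3 (0.93, SE 0.258, adjusted p = 0.0169), Maob (0.44, SE 0.066, adjusted p = 1.85e-06) and Aldh1a1 (0.36, SE 0.091, adjusted p = 0.00707). Tph2 entered this test mainly through the mutant arrays, as 7 mutant and 1 control tissue arrays of the GLP line stood above the array median. Slc6a3 entered it mainly through the hypothalamus arrays, where its difference of 0.75 did not pass. Its untested differences were 1.21 in hippocampus, 0.78 in striatum and 0.99 in cortex, with 0 control arrays above the array median there. Tph2 and Slc6a3 lost the call with a floor at the array median (adjusted p = 0.202 and 0.638), and the other 4 passed in each of the 7 other settings.

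For G9a, 2 of 9 were higher, where 4.13% of all genes tested were higher: Tph2 (1.11, SE 0.214, adjusted p = 0.000270) and Aldh1a1 (0.36, SE 0.104, adjusted p = 0.0235). Tph2 entered this test through the mutant arrays, as 6 mutant and 0 control tissue arrays of the G9a line stood above the array median. Tph2 lost the call with the same floor (adjusted p = 0.186). Aldh1a1 lost it without hippocampus control 1, cortex mutant 1, cortex control 1 or cortex control 2, with an adjusted p of at most 0.0898. The mean changes of Th (0.73, adjusted p = 0.110), Ddc (0.27, adjusted p = 0.0735) and Maob (0.21, adjusted p = 0.0968) did not pass. Maob passed after quantile normalization (adjusted p = 0.0406) and without hypothalamus mutant 2 (adjusted p = 0.0459), Th without hippocampus control 2 (adjusted p = 0.0205), and Ddc without hypothalamus mutant 2 (adjusted p = 0.0247) or striatum control 2 (adjusted p = 0.0283).

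The dopamine genes of the hypothalamus varied widely between arrays of the same group. In GLP-line controls Slc6a3 was at 1.25, 4.20, 5.63 and 3.43 and Th at 1.89, 3.49, 3.97 and 2.98, and control 1 was lowest for both. In G9a-line controls Slc6a3 was at 4.98, 3.37, 2.75 and 5.35 and Th at 5.49, 4.66, 4.22 and 4.97. GLP mutants ran from 4.06 to 5.05 and G9a mutants from 2.62 to 4.72 for Slc6a3. After the group mean was subtracted, Slc6a3 and Th of the 16 arrays had a Pearson r of 0.83 (permutation p = 9e-05, adjusted over 6 pairs of genes 0.00054) and a Spearman rho of 0.80 (permutation p = 0.00031, adjusted 0.00186). Without the 2 arrays farthest from the median of Th r was 0.75, and it was 0.98 within the 8 GLP-line and 0.67 within the 8 G9a-line arrays. The permutations ran freely over all 16 arrays, although values centred within a group are not independent. Groups also differed in spread, with a Slc6a3 SD of 1.83 in GLP-line controls and 0.45 in GLP mutants. The permutation p-values of all 6 pairs are therefore approximate and may be too small.

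The other 5 pairs among Th, Ddc, Slc6a3 and Slc18a2 had r from 0.52 to 0.74 with adjusted permutation p from 0.00381 to 0.0410. Without the 2 arrays farthest from the median of the first gene named, Th with Slc18a2 fell to 0.28 and Th with Ddc to 0.40. Slc6a3 with Slc18a2 fell to 0.43 and Ddc with Slc18a2 to 0.53, while Ddc with Slc6a3 was at 0.65. The Spearman permutation p of Th with Slc18a2 was 0.0828. Genes known from midbrain dopamine neurons were set beside Slc6a3 as a description over the same 16 arrays. In a list of 14 such genes and serotonin neuron genes, r with Slc6a3 ran from -0.36 to 0.89 with a median of 0.33. It was 0.89 for Chrna6, a nicotinic receptor subunit of midbrain dopamine neurons, and 0.82 for Ret, a receptor for glial neurotrophic factors. Among 13 transcription factors it ran from -0.13 to 0.80, highest for Foxa1, and 9 of the 13, Pitx3 and En1 among them, were below the array median on all 16 arrays. The hypothalamic peptide gene Pmch had an r of -0.45 and Hcrt one of 0.33. The pituitary gene Gh ran from -2.89 to 7.22 on these arrays, and r with Slc6a3 ran from -0.23 for Pomc to 0.41 for Lhb among pituitary genes. In G9a mutants 1 of 3 pituitary markers tested rose by limma, with a median difference of 2.97, where 1.59% of all genes were higher. In GLP mutants 0 of 3 did, with a median of 1.00. How much neighbouring tissue each dissection held, and its part in these values, was not tested.

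**Figure D4:**
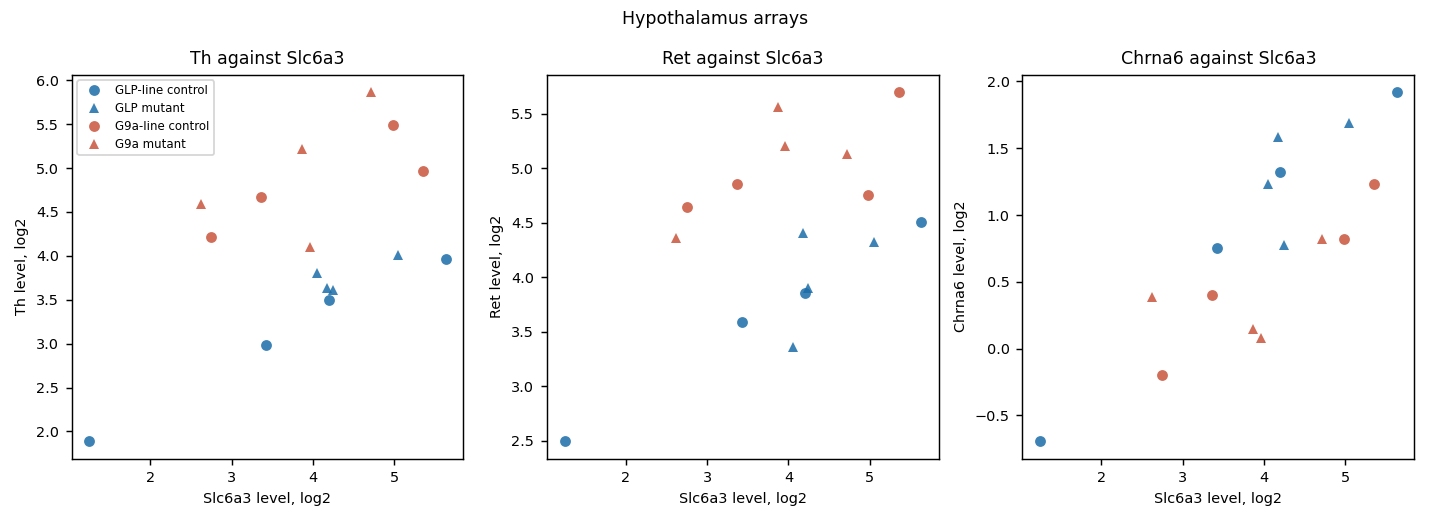
Levels (log2, 0 = array median) of Th, Ret and Chrna6 against Slc6a3 on the 16 hypothalamus arrays; circles are controls, triangles mutants, blue the GLP line and red the G9a line. GLP-line control 1 is lowest on each axis, and in the first panel the G9a-line arrays lie above GLP-line arrays of like Slc6a3 level.

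In the medium spiny neurons, which receive dopamine and are not known to make it, the members tested were Th, Ddc, Dbh, Maoa, Maob and Aldh1a1. In G9a mutants 0 of these 6 passed by limma in Drd1-MSN, beside 0.0249% of all genes tested. In Drd2-MSN it was 0 of 6, beside 0.0165%, and 0 members had an unadjusted p under 0.05 in either. Ehmt2 itself did not pass in either cell type, and it stood at 94.5% of control in the Drd2-MSN mutants. The Drd1-MSN mutants were at 4.55, 0.68 and 3.91 for Ddc and their controls at 4.43, 4.27 and 4.47. Mutant pool 2 stood apart for Ddc, and also for Maoa (2.90, against 3.76 to 4.29 in the other 5 pools) and for Ehmt2 (1.56, against 4.93 to 6.22). The Ddc difference of -1.34 (SE 0.759, adjusted p = 0.943) rests on that pool. The difference between the Drd1-MSN and Drd2-MSN changes passed by limma for 0 of 6 members, with 0 at an unadjusted p under 0.05, and for 0 of 12647 genes (0%).

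Between control pools of the 2 cell types, Dbh was higher in Drd1-MSN, the 1 of 6 members to pass, where 15.4% of all genes tested passed and 7.7% were higher. It was at 2.24, 2.12 and 2.48 in Drd1-MSN and 1.70, 1.06 and 1.17 in Drd2-MSN. The difference was 0.97 (SE 0.300, limma adjusted p = 0.0489), which is 1.95-fold. All Dbh values here and against striatum come from the x_at probe set, whose probes can also match other transcripts. The call was lost with a block for the replicate number (0.97, adjusted p = 0.103), after quantile normalization (adjusted p = 0.0957) and in 5 of 6 fits without 1 pool, namely any but Drd2-MSN control 1. Th differed by -0.86 (SE 0.341, adjusted p = 0.109), and passed in a fit of the compared groups alone (adjusted p = 0.0430). Xist was above the array median in 1 of 6 Drd1-MSN and 6 of 6 Drd2-MSN pools, and its part in these values was not tested.

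Against whole striatum of G9a-line controls, the median of all genes tested was 0.63 higher in Drd1-MSN and 0.60 higher in Drd2-MSN on the deposited scale. After quantile normalization these medians were 0.036 and 0.023. Dbh was 1.55 higher in Drd1-MSN (SE 0.157, adjusted p = 5.17e-13), above that shift, and 0.58 higher in Drd2-MSN (SE 0.157, adjusted p = 0.000967), close to it. It was the 1 of 6 members to pass in each, where 71.9% of all genes passed and 57.8% were higher for Drd1-MSN, and 68.3% and 59% for Drd2-MSN, and after quantile normalization it was no longer called in Drd2-MSN (0.21, adjusted p = 0.310). On that scale Aldh1a1 was lower in both cell types (-0.76 and -0.82) and so was Maob (-0.88 and -0.42), where the deposited scale gave -0.15 and -0.20, and -0.29 and 0.23, with none passed. With 1 pool left out Maob passed on the deposited scale in Drd1-MSN without control 3 (-0.51, adjusted p = 0.0242) and in Drd2-MSN without control 3 (0.58, adjusted p = 0.00515), and Maoa in Drd2-MSN without control 2 (0.43, adjusted p = 0.0315).

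The genes of the cofactor tetrahydrobiopterin, which Th and Tph2 need, had 6 members on the array. Of the 4 or 5 tested per mutant comparison, 1 passed in 1 comparison: Pcbd1, which recycles the cofactor, rose by 0.65 (SE 0.167, adjusted p = 0.0179) in the G9a hippocampus. The list's median there was -0.063, beside 0.030 over all genes tested. Of 15 other amine enzymes and transporters, 9 to 12 were tested, and only Hdc, the enzyme that makes histamine, passed, with a rise of 0.76 (SE 0.213, adjusted p = 0.0406) in the GLP hippocampus, where 1.73% of all genes were higher. Of 5 family relatives of the hydroxylases and dehydrogenases on the array, 0 passed by limma in the 10 comparisons.

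Of 13 transcription factors of monoamine neurons, 3 to 5 were tested per comparison. In the G9a hippocampus Gata2 rose by 0.63 (adjusted p = 0.0277) and Insm1 fell by 0.66 (adjusted p = 0.0240), where 2.25% of all genes were higher and 0.469% lower. In the G9a striatum Nr4a2, a factor of midbrain dopamine neurons that deep cortical neurons also make, rose by 3.44 (SE 0.606, adjusted p = 0.000122), where 1.87% of all genes were higher and 1.15% lower. It is also 1 of the 3 cortex markers named above. Of 14 other genes of midbrain dopamine and raphe neurons, Calb1 fell in the GLP (-0.42, adjusted p = 0.0124) and G9a hippocampus (-0.40, adjusted p = 0.0310). Ntsr1 rose by 1.56 in the G9a hippocampus, and Htr1a by 0.69 and Vip by 1.48 in the G9a striatum. In those G9a hippocampus arrays 3 of 8 meningeal and fibroblast markers tested rose, Col1a2, Fmod and Lum, with a median difference of 0.92 over the 8 and a summed level of 56.4 to 139 in mutants and 49.9 to 60.2 in controls. Of 11 endothelial and mural markers 0 passed, with a median of 0.32 and sums of 237 to 389 and 234 to 266, and of 7 choroid plexus and ependyma markers 0, with a median of 0.43 and sums of 148 to 530 and 85.8 to 199. Their part in the Gata2, Insm1, Pcbd1, Ntsr1 and Calb1 values was not tested, nor that of the choroid plexus and ependyma markers of the GLP hippocampus in Hdc and Calb1. By limma 0 genes of these 5 lists passed in the cortex of either mutant.

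Over the means of the 20 groups, the genes most like each member were looked up among 13371 genes with a group mean above the array median, as a description. The groups share tissues and mouse lines. Slc18a2 was most like Hcrt, the orexin gene (r = 0.97), Slc6a3 like AW551984, Ngb and Pmch (0.97, 0.97 and 0.96), and Th like Trh, the thyrotropin-releasing hormone (0.90). Ddc was most like Mrap2 (0.96), Maob like Lgals8 (0.90) and Aldh1a1 like Cdc7 (0.87). For Tph2 no gene exceeded 0.79.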

How the data were processed

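The deposited table holds 1 linear intensity per probe set and array (45101 probe sets), made by the authors with GCRMA, per the submitters' processing notes. No source used here gives its version or says which arrays shared a run, and a joint run can shift levels between lines. Each array's deposited intensities have a median of 1, and log2 values were taken. Platform annotation named 1 gene for 34945 probe sets, several for 932 and none for 9160, and 64 control probe sets were left out. limma 3.58.1 (R 4.3.3) fitted group means with an intensity trend to the 16 tissue groups, to the 4 polyribosome groups, or to all 20 for cell type against striatum. Region comparisons weighted both lines equally. The p-values measure the spread between samples pooled over a fit's groups, and the small number of arrays limits precision. The fit was tested on simulated data. Folds against a group mean below the array median are lower bounds. All 10 members and, per list and comparison, up to 4 genes that passed were named. Members and lists were chosen with earlier results of these data known. Equal replicate numbers pair samples by the data check (each correlation of same-number deviations above 0.1) in Drd2-MSN mutants and controls, where the lowest was 0.16, and between GLP-line control regions for hippocampus with striatum (0.16) or cortex (0.35) and for cortex with hypothalamus (0.18) or striatum (0.19), but in no G9a-line pair of regions.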

Additional observations from a re-analysis of the deposited data

Results flagged for a closer look

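In groups of 4 arrays, 130 sets of values were checked for an array far from the other 3, and 6 were found (4.62%), where chance flags about 1 in 20. Both serotonin genes singled out mutant 1 of the G9a hypothalamus: Tph2 was 1.49 there against -0.82 to -0.69 in the other mutants, and Slc6a4 was -1.15 against -3.45 to -3.34, still below the array median. Slc6a4 in GLP striatum mutant 1 was -1.86, against -2.75 to -2.64. In G9a striatum control 1, Slc6a3 was -1.56, against -2.56 to -2.43, and Maoa was 4.00, against 3.75 to 3.77. Slc18a2 in GLP cortex control 4 was -0.39, against -0.67 to -0.64.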

How the results depend on the processing

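Of 1430 member values recomputed under other settings, 1392 kept their direction and side of the threshold, 13 lost and 23 gained a call, and 2 reversed. With 1 array left out, 2716 kept both, 20 lost and 17 gained a call, and 0 reversed. Fitting the compared groups alone called 1 member in the GLP hippocampus, 2 in the GLP striatum and 1 in the G9a striatum (each 0 otherwise), 3 in the G9a cortex (1 otherwise) and 2 between Drd1-MSN and Drd2-MSN controls (1 otherwise). Over all genes that fit called 112 in the GLP striatum against 193, and 312 in the G9a cortex against 85. Without the filter, Tph2 made it 1 in the GLP striatum and 1 in the G9a hypothalamus, the control cell types gave 2 (4380 genes in all against 1882), and Drd1-MSN and Drd2-MSN against striatum 3 and 3. Quantile normalization gave 2 in the GLP striatum, 0 between the cell types, 3 and 2 against striatum, where Maob in Drd2-MSN reversed to -0.42, and 1 for the change across regions in GLP mutants. GLP-line controls alone gave 2 of 4 between hippocampus and cortex, where Dbh reversed to 0.0072. The floor left 1 of 2 for the G9a mean change. The replicate block left 0 between the cell types and gave 2 for Drd2-MSN against striatum, with Maoa added (adjusted p = 0.0479), added Dbh between hippocampus and hypothalamus, and changed no call in the 4 region comparisons that the numbers pair or in Drd2-MSN mutants. With an array left out, counts ran from 0 to 1 in the GLP striatum, 0 to 0 in the G9a cortex, 0 to 1 between the cell types, 1 to 2 for each against striatum, 0 to 1 for the change across regions in GLP mutants and 1 to 4 for the G9a mean change. The cause was not tested. Quantile normalization moved the median of all genes from 0.63 and 0.60 to 0.036 and 0.023 for the cell types against striatum, and from 0.13 to near 0 for hippocampus minus cortex.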

Other observations

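Tdo2, the dioxygenase that takes tryptophan, the precursor of serotonin, towards kynurenine, is no member of the 10 genes and was singled out after its values were seen. It is in the list of hippocampus markers. It rose by 1.57 (SE 0.333, limma adjusted p = 0.00199) in the GLP hippocampus and by 2.98 (SE 0.332, adjusted p = 3.87e-09) in the GLP cortex. In G9a mutants it rose by 1.83 (adjusted p = 0.000636) in the hippocampus and by 3.05 (adjusted p = 3.10e-05) in the cortex.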
